A study of Homo sapiens with 9 samples.

Results

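The AP-1 and EGR immediate early factors are transcription factors of 2 structural kinds, bZIP proteins of the FOS and JUN families and zinc finger proteins of the EGR family. The members were listed by name (FOS, FOSB, FOSL1, FOSL2, JUN, JUNB, JUND, EGR1, EGR2 and EGR3), and their values were read from the probe sets that the array annotation assigns to a single gene. Of the 10 listed genes, 9 had such a probe set, 1 each, out of 18417 genes measured this way on the array. EGR2 is not analysed here. The cells were NCI-H295R, a human adrenocortical carcinoma line that makes mineralocorticoids, glucocorticoids and androgens. They were plated for 24 h and then kept for 48 h in 1 of 3 conditions. Normal growth medium held NU-I serum with insulin, transferrin and selenium, starvation medium held none of these, and the metformin group received 10 mM metformin in starvation medium. Each condition had 3 arrays, lettered A, B and C, and the submitters' design text speaks of 3 independent experiments. As serum and the supplements were withdrawn together, their effects cannot be told apart, and normal growth differs from the metformin group by both the medium and the drug.

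AP-1 is a dimer of a FOS protein with a JUN protein, or of JUN proteins with each other, which binds short DNA elements in many promoters and enhancers. EGR proteins bind GC-rich elements through their zinc fingers. In resting cells most of these genes are nearly silent, and serum or a growth factor switches on FOS, FOSB, JUNB, EGR1 and their relatives within minutes through ERK kinases, serum response factor and CREB, without new protein synthesis. The transcripts are short-lived, so the burst passes within hours, while FOSL1, FOSL2 and JUND turn over more slowly. In the adrenal cortex, corticotropin and angiotensin II induce the same genes. The arrays described here sampled the cells after 2 days in each medium, so the first minutes and hours of a response were not sampled.

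All values are log2 expression values from RMA, in which a difference of 1 is a doubling. Differences between conditions are taken within a probe set. A level is set against the array median only to show roughly where a probe set lies on its array, since brightness also depends on the probes, and no order of levels is drawn between genes. The 9 arrays resembled each other closely, with Pearson correlations over all 33297 probe sets of 0.9842 or more between groups and 0.9903 or more within groups. Their medians lay between 6.035 and 6.158. Of 9 adrenocortical marker genes, 7 were above the array median on average, as were 3 of 9 fibroblast markers and none of 5 endothelial or 5 immune markers. In a culture, fewer cells that make a transcript and less transcript per cell cannot be told apart.

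The promoters of EGR1, JUNB and JUN are shown because these members had the largest estimated differences from normal growth, in starvation as well as with metformin. The set of RefSeq (GRCh38.p14) promoters used here held an entry for 7 of the 9 measured members and none for FOSL1 or EGR3. Each entry is a window from 250 bases before the transcription start to 50 after it. The 120 bases before the start are printed here 5′ to 3′ in lower case, on the strand of the gene, with motif matches in capitals. The windows lie at chr5:138465359-138465478 on the plus strand for EGR1, at chr19:12791366-12791485 on the plus strand for JUNB and at chr1:58784048-58784167 on the minus strand for JUN.
EGR1: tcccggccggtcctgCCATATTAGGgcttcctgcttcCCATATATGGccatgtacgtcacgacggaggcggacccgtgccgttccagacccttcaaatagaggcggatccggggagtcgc
JUNB: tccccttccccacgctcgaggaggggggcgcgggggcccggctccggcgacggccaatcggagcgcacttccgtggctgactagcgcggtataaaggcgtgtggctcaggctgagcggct
JUN: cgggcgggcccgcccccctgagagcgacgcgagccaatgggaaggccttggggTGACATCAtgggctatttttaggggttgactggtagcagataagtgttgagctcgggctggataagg

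The motifs searched, on both strands, were the CArG box bound by serum response factor, the cyclic AMP response element TGACGTCA, the AP-1 site TGACTCA, the AP-1-like element TGACATCA and the EGR elements GCGTGGGCG and GCGGGGGCG. The capitals in EGR1 mark 2 CArG boxes that begin 105 and 83 bases before the start, and a CArG box was found in 1.29% of 35116 RefSeq promoters of the same length. In JUN they mark TGACATCA, 67 bases before the start, a string found in 2.61% of promoters. JUNB held no match. Among the other members, FOSL2 held TGACTCA 4 bases after the start (4.95% of promoters) and JUND held TGACGTCA 200 bases before it (1.85%). FOS and FOSB held no match in this window, and none of the 7 windows held an EGR element (0.795% and 5.07% of promoters for the 2 forms). Only these motifs were searched, so variant forms and sites further from the start were not sought. A match describes the letters in the window and not binding.

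**Figure D1:**
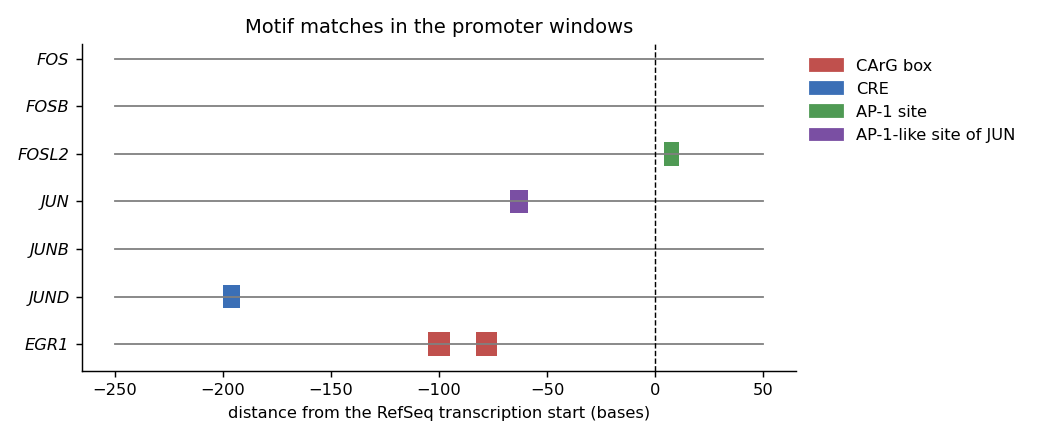
Position of motif matches in the RefSeq promoter windows of the 7 members with an entry, in bases from the transcription start (dashed line), with each window drawn as a grey line from 250 before to 50 after the start. The 2 CArG boxes of EGR1 lie within 105 bases of the start, and FOS, FOSB and JUNB hold no match.

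EGR1 and JUNB were the members whose starved arrays all lay below all normal growth arrays. Over all probe sets, 13.0% did not overlap in this comparison, in either direction. JUN was the member with the largest difference toward higher values in starvation. None of the 9 members passed the test between starvation and normal growth, where 0.042% of all probe sets passed as higher and 0.108% as lower. With metformin added to starvation medium, EGR1 was lower and JUN was higher than in normal growth past the test, beside 4.44% of all probe sets lower and 4.63% higher. No member passed it against starvation alone, beside 2.3% of probe sets higher and 1.98% lower. FOS itself, the founding member of the family, lay within 0.46 on the log2 scale over all 9 arrays, and its groups overlapped in each comparison. This range was between those of JUNB (0.355) and EGR1 (0.645).

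EGR1, a zinc finger factor that serum response factor switches on within minutes of a growth signal, showed the largest difference of a member in both comparisons with normal growth. Its values were 8.64, 8.69 and 8.56 in normal growth, 8.11, 8.30 and 8.14 in starvation and 8.31, 8.29 and 8.05 with metformin. Every array without serum was below every normal growth array, while the starvation and metformin arrays overlapped. The group means were 8.63 ± 0.07, 8.18 ± 0.10 and 8.22 ± 0.15 (SD, n = 3 each). Against normal growth the difference was -0.45 in starvation (SE 0.0679, 95% confidence interval -0.617 to -0.284, 1.37-fold lower, adjusted p = 0.123) and -0.41 with metformin (SE 0.0874, interval -0.628 to -0.201, 1.33-fold lower, adjusted p = 0.0414). Of these only the difference with metformin passed the test, although it had the smaller estimate. Its unadjusted limma p was also the larger, 0.00319 against 0.000608 in starvation. The adjustment runs over all probe sets of a comparison, and 50 of them passed in starvation and 3021 with metformin. Between metformin and starvation the difference was 0.04 (interval -0.20 to 0.272, adjusted p = 0.877). When the fit was restricted to probe sets with a single gene symbol, which lowers the number of tests, the difference in starvation passed as well (adjusted p = 0.0465). The difference with metformin lost the call when normal growth A, B or C or metformin A or B was left out (adjusted p from 0.0693 to 0.153) and kept it without metformin C (-0.33, adjusted p = 0.0346). It was also lost when each probe set was tested by its own spread alone (adjusted p = 0.104).

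EGR3, a related factor known from neurons, muscle spindles and lymphocytes, was below the array median on all 9 arrays. Its values were 5.42, 5.42 and 5.33 in normal growth, 5.48, 5.49 and 5.21 in starvation and 5.29, 5.40 and 5.40 with metformin. The groups overlapped in each comparison, and starvation C was the lowest of the 9 arrays. The differences were 0.00 in starvation and -0.03 with metformin, each against normal growth.

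JUN, the principal partner of FOS, was ordered from normal growth through starvation to metformin. Its values were 7.55, 7.45 and 7.60 in normal growth, 7.59, 7.75 and 7.81 in starvation and 7.95, 7.78 and 7.83 with metformin. Neighbours in that order overlapped, since starvation A was just below normal growth C and metformin B was below starvation C. All metformin arrays were above all normal growth arrays. The difference between metformin and normal growth was 0.32 (SE 0.0707, interval 0.149 to 0.495, 1.25-fold higher, adjusted p = 0.0461). The smaller differences of starvation from normal growth (0.19, interval 0.000200 to 0.371, adjusted p = 0.621) and of metformin from starvation (0.14, interval -0.0672 to 0.34, adjusted p = 0.442) did not pass. The call lay close to the threshold. It was lost without any 1 of the 6 arrays, namely normal growth A, B or C or metformin A, B or C (adjusted p from 0.0638 to 0.156), and also when a constant brought all array medians to the same level (0.30, adjusted p = 0.0637) or each probe set was tested by its own spread alone (adjusted p = 0.0946).

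JUNB, which weakens the activity of JUN on many promoters, ran the other way. Its values were 8.45, 8.45 and 8.55 in normal growth, 8.21, 8.26 and 8.20 in starvation and 8.25, 8.29 and 8.33 with metformin. Every normal growth array was above every array without serum, and the starvation and metformin arrays overlapped. JUNB was lower than in normal growth by 0.26 in starvation (log2 difference -0.26, SE 0.0496, interval -0.385 to -0.141, adjusted p = 0.189) and by 0.19 with metformin (-0.19, SE 0.055, interval -0.329 to -0.0599, adjusted p = 0.0905). Neither passed the test. The difference with metformin passed when all 9 arrays were fitted together (adjusted p = 0.0444) and when dim probe sets were left out before the fit (adjusted p = 0.0498).

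Since JUN and JUNB differed in opposite directions, JUN minus JUNB was followed on each array, as a difference from its mean in normal growth. This quantity was chosen after the values had been seen and carries no test. It was 0.05, -0.05 and 0.00 on the normal growth arrays, 0.34, 0.44 and 0.57 on the starvation arrays and 0.66, 0.44 and 0.45 on the metformin arrays. The arrays without serum were all above those of normal growth, by 0.45 on average in starvation and 0.52 with metformin, and starvation and metformin overlapped.

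JUND, the most constantly expressed JUN protein, was measured at 8.87, 8.86 and 8.88 in normal growth, at 8.78, 8.75 and 8.87 in starvation and at 8.93, 8.89 and 9.19 with metformin. The metformin arrays were above all others, with metformin C standing furthest away. Metformin differed from starvation by 0.20 (SE 0.0933, interval -0.0237 to 0.434, adjusted p = 0.30), and from normal growth by 0.14 (adjusted p = 0.431). Without metformin C the difference from starvation was 0.11 and that from normal growth 0.04. Starvation and normal growth overlapped (-0.07, adjusted p = 0.808).

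**Figure D2:**
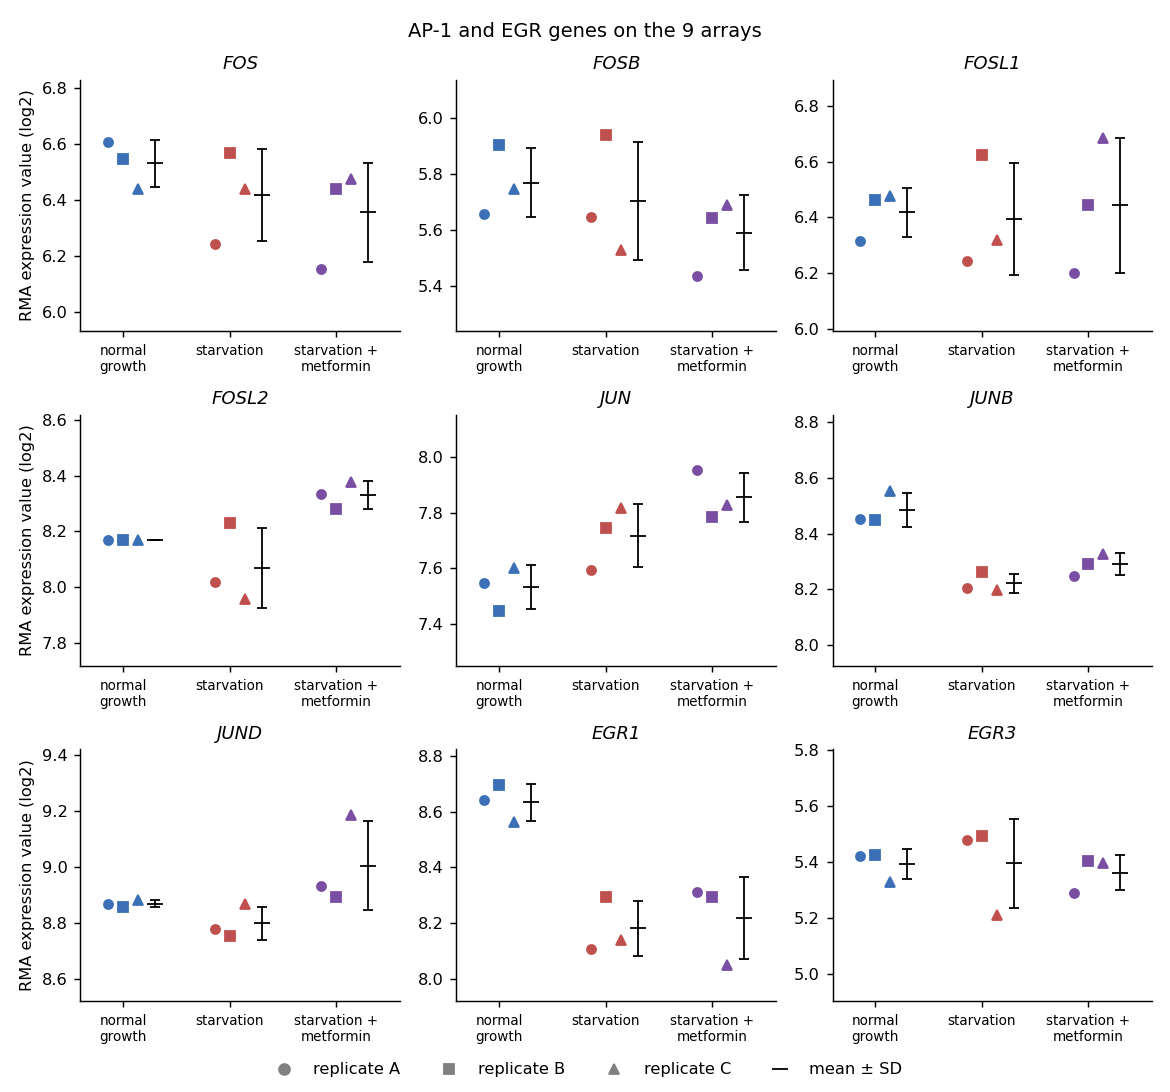
RMA expression value (log2) of the 9 measured members on each array, by condition, with points for replicates A, B and C and bars for the mean ± SD of the 3 arrays; each panel has its own axis range. EGR1 and JUNB in normal growth (8.63 and 8.48 on average) lie above every array of the other conditions, and JUN with metformin (7.85) lies above every array of normal growth.

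FOS, the classic serum-induced proto-oncogene, was measured at 6.61, 6.55 and 6.44 in normal growth, at 6.24, 6.57 and 6.44 in starvation and at 6.15, 6.44 and 6.47 with metformin. The groups overlapped in every comparison, and array A was the lowest in both conditions without serum. The means were 6.53 ± 0.08, 6.42 ± 0.17 and 6.36 ± 0.18 (SD, n = 3 each). Starvation differed from normal growth by -0.11 (SE 0.0959, interval -0.35 to 0.121, adjusted p = 0.844), metformin from starvation by -0.06 (interval -0.364 to 0.242, adjusted p = 0.836) and metformin from normal growth by -0.18 (interval -0.425 to 0.0742, adjusted p = 0.381). The intervals reached at most 1.34-fold away from equality. FOS lay between the 50.6 and 56.3 percentile of its array throughout, close to the array median. As signal over background was not measured, the intervals describe the array value and not the amount of transcript. The value 6.4399 occurred on 3 arrays, normal growth C, starvation C and metformin B.

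FOSB, which has a truncated splice form that accumulates under repeated stimulation, was below the array median on all 9 arrays. Its values were 5.66, 5.90 and 5.75 in normal growth, 5.65, 5.94 and 5.53 in starvation and 5.44, 5.64 and 5.69 with metformin. FOSL1, the Fra-1 protein of the delayed response, was measured at 6.32, 6.46 and 6.48, at 6.24, 6.62 and 6.32, and at 6.20, 6.44 and 6.68 in the same order of conditions. For both genes all groups overlapped, and the differences lay between -0.18 and 0.05 with adjusted p of 0.344 or more. The spread among the 3 metformin arrays of FOSL1 covered that of all the other arrays.

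FOSL2, the Fra-2 protein, gave 8.17 on all 3 normal growth arrays, with the same value to every deposited digit, so these arrays hold no measure of its spread. It was 8.02, 8.23 and 7.96 in starvation and 8.33, 8.28 and 8.38 with metformin. All metformin arrays were above all other arrays, while starvation B was above normal growth and starvation A and C were below it. Metformin differed from starvation by 0.26 (SE 0.0858, interval 0.0515 to 0.472, adjusted p = 0.164) and from normal growth by 0.16 (interval 0.041 to 0.282, adjusted p = 0.111). Neither passed the test, and in the comparison with normal growth the error rests on the metformin arrays and on the spread borrowed from other probe sets.

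**Figure D3:**
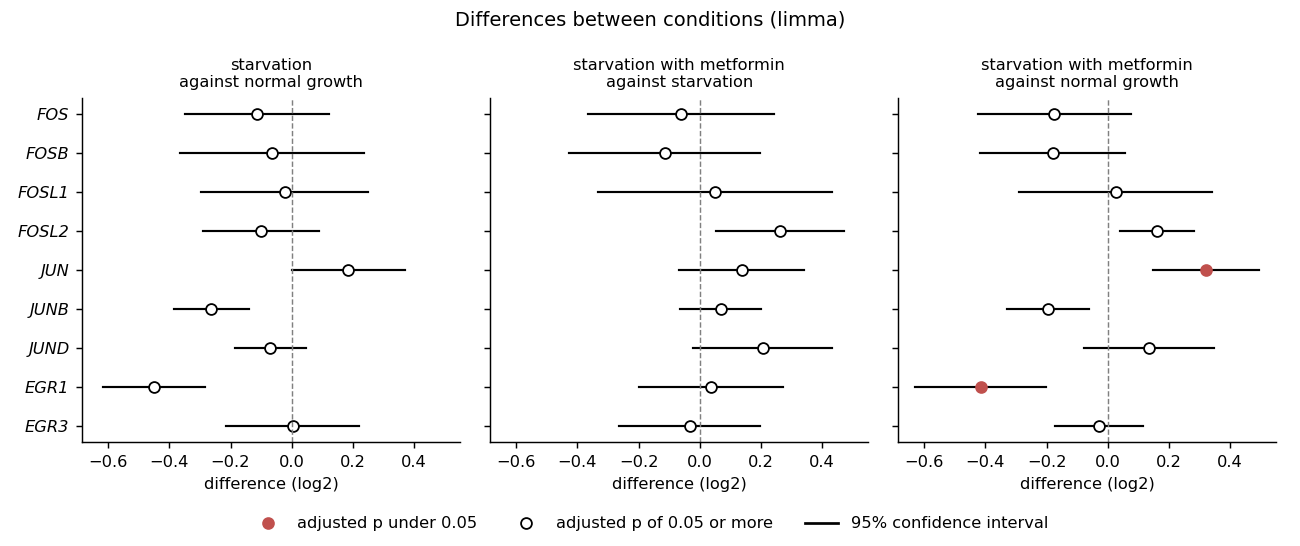
Difference between conditions (log2, horizontal axis) for the 9 members in the 3 comparisons, as the limma estimate with its 95% confidence interval; filled points have an adjusted p under 0.05. EGR1 (-0.41) and JUN (0.32) between metformin and normal growth are the filled points, and the intervals of EGR1 and JUNB in starvation lie below 0.

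Between starvation and normal growth, 0 of the 9 members were called by limma. The split over all probe sets was 14 higher and 36 lower, and 4 higher and 24 lower when the array medians were made equal. At an unadjusted p under 0.05 there were 3 members (EGR1, JUNB and JUN), beside 8.04% of all probe sets, and a test of each probe set by its own spread alone, with the same adjustment, called 0. The arrays of 2 members, EGR1 and JUNB, did not overlap, beside 13.0% of all probe sets. The median difference over the members was -0.07, and that over all probe sets was -0.00104. The estimate was negative for 7 members and positive for 2, and the interval furthest from equality, that of EGR1, reached 1.53-fold.

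Between metformin and starvation, 0 members were called. FOSL2 was the 1 member at an unadjusted p under 0.05 (19.9% of all probe sets), and the 2 that did not overlap were FOSL2 and JUND (25.2%). The median difference over the members was 0.05, against -0.00678 over all probe sets, and no interval reached past 1.39-fold. The members' shares were thus near to or below those over the whole array.

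Between metformin and normal growth, 1 member was called higher (JUN) and 1 lower (EGR1). At an unadjusted p under 0.05 there were 4 members, EGR1, JUN, JUNB and FOSL2, beside 22.9% of all probe sets. The arrays of 5 members did not overlap, JUN, FOSL2 and JUND above and EGR1 and JUNB below, beside 28.4% of all probe sets. The median difference was -0.03 over the members and -0.00292 over all probe sets. The metformin arrays enter both of their comparisons, and the normal growth and starvation arrays likewise, so the 3 comparisons are not separate evidence. In an exact two-sided permutation test of 3 against 3 arrays the smallest possible p is 0.1, which was reached where groups did not overlap.

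**Figure D4:**
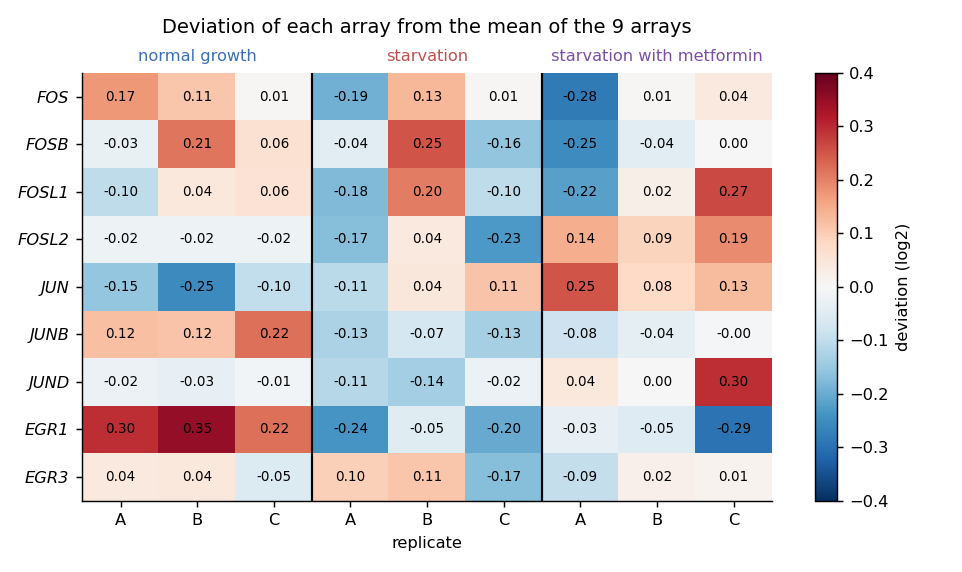
Deviation of each array from the 9-array mean of the same gene (log2, colour and printed number), with members as rows and replicates A, B and C of the 3 conditions as columns. EGR1 and JUNB are above their mean on the 3 normal growth arrays, JUN is below it there and highest on metformin A, and FOS, FOSB and FOSL1 are lowest on metformin A.

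Single arrays carried several members at once. Starvation B was the highest of the starved arrays for 7 of the 9 members, beside 40.4% of all probe sets, and metformin C was the highest of its group for 6 (34.8%). Metformin A was the lowest of its group for 5 members (30.4%). FOS, FOSB and FOSL1 shared much of this pattern, with Pearson correlations over the 9 arrays of 0.68 for FOS with FOSB, 0.682 for FOSB with FOSL1 and 0.609 for FOS with FOSL1. EGR1 correlated with JUNB at 0.809 and with JUN at -0.669, and JUN with JUNB at -0.612. FOSL2 correlated with JUND at 0.611. These are descriptions over 9 arrays that share 3 conditions and a normalization.

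Genes whose pattern was most like that of a member were sought among 1142 genes at or above the median level whose group means spanned at least 0.5, by Pearson correlation over the 9 arrays. The genes searched were chosen for differing between the same conditions, and only the highest correlations are given. High values were thus favoured by the choice and carry no test. Nearest to EGR1 were THRB (0.943), a thyroid hormone receptor, BCL2 (0.918), an inhibitor of apoptosis, KIF16B, a kinesin, SERINC5 (0.914) and LINC00174. The group means of BCL2 were 7.35 in normal growth, 6.87 in starvation and 6.76 with metformin, and thus lower in both conditions without serum. Nearest to JUN were PPARA (0.912), a fatty acid receptor, ZMAT3 (0.911), a zinc finger target of p53, PXDC1, LARP1B and HSD17B7P2. The means of PPARA were 7.43, 7.66 and 8.03 in the order of JUN. For FOS the highest were FAM107A (0.731), ADAT3 (0.71), ADORA1 (0.694), PRR15 (0.684) and SLC29A1 (0.668). The group means of EGR1, JUN and FOS themselves spanned less than was required of the genes searched.

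The bZIP proteins that pair with FOS and JUN, such as ATF and MAF factors, had 10 of 12 listed genes measured. None was called in any comparison. The lowest p in both metformin comparisons belonged to MAFG, a small MAF protein, which was 0.46 above starvation (adjusted p = 0.127) and 0.47 above normal growth (adjusted p = 0.0859). It was followed by ATF3, a stress-induced immediate early factor, with 0.24 above starvation (adjusted p = 0.202) and 0.35 above normal growth (adjusted p = 0.0894). The NAB corepressors, which bind EGR proteins and hold them back, and EGR4 gave differences between -0.144 and 0.144 in the 3 comparisons, and 0 of 3 were called. Of the serum response factor, ternary complex and CREB genes that act on the promoters of the members, 7 of 9 were measured, 0 were called and differences lay between -0.092 and 0.109.

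Of the RAS, ERK and JNK kinase genes, which carry growth and stress signals to the members, 13 of 19 were measured. None was called between starvation and normal growth, where RPS6KA3 was 0.22 higher (adjusted p = 0.299), or between metformin and starvation, where MAPK7 was 0.36 lower (log2 difference -0.36, adjusted p = 0.0523). Between metformin and normal growth 3 rose and 1 fell, beside 4.63% and 4.44% of all probe sets. The RSK kinase genes RPS6KA1 (0.38, adjusted p = 0.0141) and RPS6KA2 (0.53, adjusted p = 0.0343) rose, as did MAPK9, which encodes the JUN kinase JNK2 (0.38, adjusted p = 0.0227). MAPK7, which encodes ERK5, fell (-0.31, adjusted p = 0.031). The median over the list was 0.07, against -0.00292 over all probe sets.

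Other immediate early genes, which growth signals induce in the same way, had 27 of 29 measured. None was called between starvation and normal growth, and 8 had an unadjusted p under 0.05, 3 higher and 5 lower, beside 8.04% of all probe sets in either direction. NR4A2, an orphan nuclear receptor, was 0.55 higher in starvation (adjusted p = 0.0538), and SGK1, a kinase gene induced by serum and glucocorticoids, differed by -0.33 (adjusted p = 0.192). Between metformin and starvation 4 rose and 1 fell, beside 2.3% and 1.98% of all probe sets. MYC, the growth-promoting factor, fell by 0.77 (adjusted p = 0.0183), from 9.41, 9.33 and 9.29 in starvation to 8.45, 8.52 and 8.74 with metformin. ZFP36L2, which marks mRNA for decay, rose by 0.34 (adjusted p = 0.036), PLK3, a stress kinase, by 0.31 (adjusted p = 0.038) and NR4A1 by 0.54 (adjusted p = 0.0445).

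Between metformin and normal growth 5 of these genes rose and 3 fell, beside 4.63% and 4.44% of all probe sets. MYC fell (-0.85, adjusted p = 0.00707), and PPP1R15A, which encodes a stress-induced phosphatase subunit, rose by 0.83 (adjusted p = 0.0311). NR4A2 rose by 1.12 (adjusted p = 0.00887), from 6.13, 5.94 and 6.02 to 7.38, 7.15 and 6.91, and ZFP36L2 rose by 0.33 (adjusted p = 0.0268). The immediate early genes outside the AP-1 and EGR families thus differed in both directions, with a list median of 0.01, and their calls lay between -0.85 and 1.12, while those of the members were -0.41 and 0.32.

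**Figure D5:**
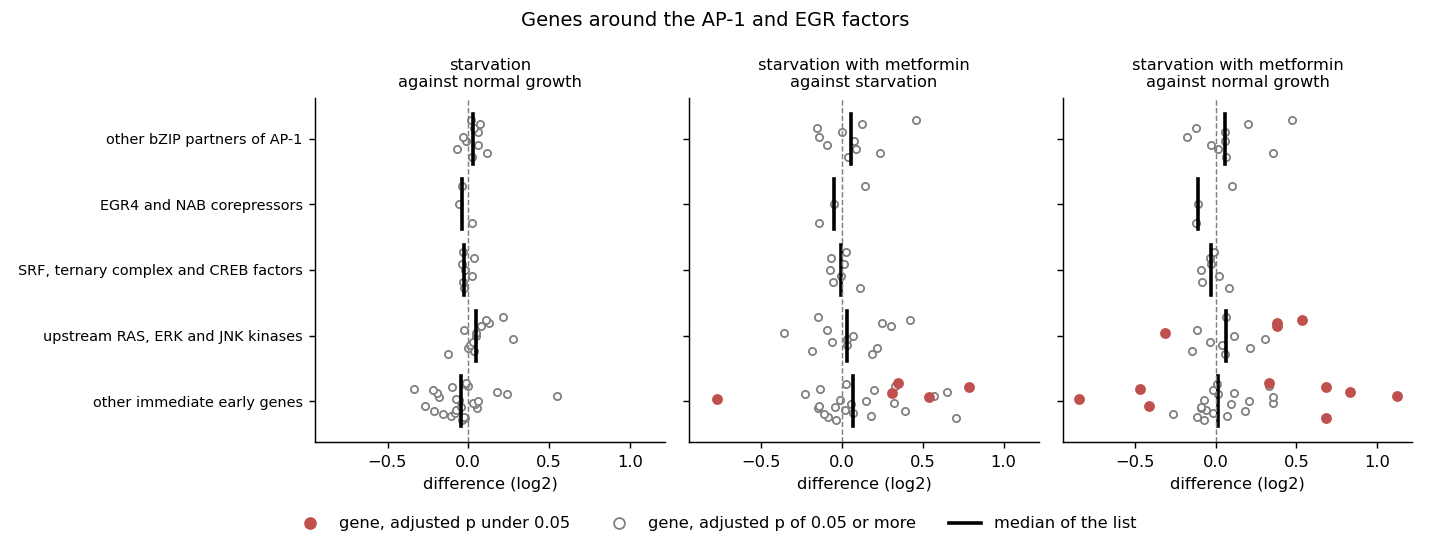
Difference between conditions (log2) of each measured gene in 5 lists around the members, in the 3 comparisons; filled points have an adjusted p under 0.05 and the bars mark the list medians. The bZIP partners, EGR4 with the NAB corepressors and the serum response factor list have no filled point, and the other immediate early genes spread widest, from -0.85 to 1.12 between metformin and normal growth.

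Genes described as targets of AP-1 or EGR factors had 23 of 24 measured. None was called between starvation and normal growth, with a list median of -0.00852. The lowest p there belonged to PDGFA, a growth factor gene with EGR sites (0.17, adjusted p = 0.453), and to THBS1, a matrix protein gene (-0.26, adjusted p = 0.462). Between metformin and starvation SPP1, which encodes osteopontin, rose by 0.88 (adjusted p = 0.0197) and PDGFA by 0.32 (adjusted p = 0.0452), beside 2.3% of all probe sets higher. Against normal growth PDGFA rose by 0.49 (adjusted p = 0.00892), HBEGF, an EGF receptor ligand gene, by 0.49 (adjusted p = 0.0149) and SPP1 by 0.54 (adjusted p = 0.0243), while ODC1, the polyamine enzyme gene, fell (-0.48, adjusted p = 0.023). Over all probe sets 4.63% were called higher there and 4.44% lower. PDGFA was 7.55, 7.46 and 7.45 in normal growth, 7.60, 7.72 and 7.64 in starvation and 8.03, 7.93 and 7.96 with metformin. All metformin arrays were above all other arrays.

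Other lists also differed between the conditions. Heat shock genes, 7 of 9 measured, had 1 call, HSPH1, which fell with metformin against normal growth (-0.48, adjusted p = 0.0164), beside 4.44% of all probe sets lower. Of the adrenocortical markers, 0 of 9 were called between starvation and normal growth. There 5 had an unadjusted p under 0.05, all lower, beside 8.04% of all probe sets in either direction. In this list 1 rose and 2 fell between metformin and starvation, beside 2.3% and 1.98% of all probe sets. Between metformin and normal growth 1 rose and 3 fell, beside 4.63% and 4.44%. The mean level of the adrenocortical list per array was 9.19 to 9.30 in normal growth, 9.09 to 9.12 in starvation and 8.98 to 9.20 with metformin. SULT2A1, the DHEA sulfotransferase gene, fell by 0.82 against starvation (adjusted p = 0.0145), NR5A1, the gene of steroidogenic factor SF-1, fell by 0.46 (adjusted p = 0.0196), and MC2R, the corticotropin receptor gene, rose by 1.02 (adjusted p = 0.0389). Against normal growth SULT2A1 (-1.19), NR5A1 (-0.57) and INHA, the inhibin alpha gene (-0.55), fell and MC2R rose, with adjusted p of 0.0255 or less. No fibroblast, endothelial or immune marker was called in any comparison. Fibroblast markers differed by -0.916 to 0.0989 between starvation and normal growth and by -0.339 to 0.554 between metformin and starvation. Between metformin and normal growth the range was -0.362 to 0.00949. In that order 1, 1 and 2 of the 9 had an unadjusted limma p under 0.05, beside 8.04%, 19.9% and 22.9% of all probe sets. The mean level of the fibroblast list was 5.31 to 5.32 in normal growth, 5.18 to 5.29 in starvation and 5.09 to 5.28 with metformin, that of the endothelial list 4.17 to 4.23, 4.17 to 4.38 and 4.11 to 4.33, and that of the immune list 4.39 to 4.45, 4.28 to 4.52 and 4.31 to 4.47. The part of these shifts in the members' values was not tested.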

How the data were processed

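Total RNA of NCI-H295R cells was hybridised to 9 GeneChip Human Gene 1.0 ST arrays. The authors deposited log2 values from RMA, which corrects background, quantile normalizes the arrays and summarises each probe set. Affymetrix Expression Console, RMA and limma are listed in the submitters' processing notes, and Affymetrix Power Tools in the methods of the paper. The sources used here give no versions, scan dates or batches. The values were used as deposited. The number of arrays, 3 per group, limits the precision.

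The array annotation gave 19460 of 33297 probe sets 1 gene symbol, 1754 several and 12083 none, and a gene was represented by its brightest probe set with its symbol alone. Of the 19460, 19429 were matched to RefSeq by gene identifier. Each comparison was fitted over all probe sets on the 6 arrays concerned (limma 3.58.1 in R 4.3.3, lmFit and eBayes), with Benjamini-Hochberg adjustment over all 33297. Genes were called at an adjusted p under 0.05. Intervals are 95% confidence intervals. The fit was tested on simulated data with planted differences larger than that of any member, which does not show its power at the sizes seen here.

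All members are named. From each other list up to 4 called genes with the lowest p are named, or up to 2 where none was called, and 5 genes most like FOS, JUN and EGR1. The members and lists were chosen with earlier results of these data known. Alternatives tried were 1 fit over the 9 arrays together, a common median, renewed quantile normalization, removal of dim probe sets (below the 40th percentile), single-gene probe sets, averaged probe sets of a gene, the eBayes options trend and robust, a Student test of each probe set by its own spread (equal variances, not stated for the arrays by the paper), a replicate block and leaving out each array. Replicate letters were not taken to pair arrays.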

Additional observations from a re-analysis of the deposited data

How the results depend on the processing

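Of 405 member differences recomputed under alternatives, 363 kept their direction and side of the threshold, 23 changed sign, 16 lost the call and 3 gained it. Most of the 363 were differences that were not called at the outset. Only EGR1 and JUN between metformin and normal growth had a call to lose. EGR1 kept it in 8 of 15 alternatives and JUN in 6 of 15. The number of members called between starvation and normal growth was 0, and 1 (EGR1) with single-gene probe sets only. Between metformin and normal growth it was 2, and 3 in the fit of all 9 arrays or without dim probe sets (JUNB added), 1 with arrays shifted to a common median, 0 with each probe set tested by its own spread, 0 with the replicate block and 0 to 1 when each array was left out. Between metformin and starvation it was 0 under every alternative run. Letters paired arrays poorly (correlations of same-letter deviations from -0.249 to 0.294). Under the replicate block the adjusted p between metformin and normal growth was 0.0809 for EGR1 and 0.107 for JUN, and no probe set was called in any comparison. The cause of these losses was not tested.

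The differences that changed sign were small. EGR1 between metformin and starvation was -0.00547 after renewed quantile normalization, and -0.0109 to 0.12 when each array was left out. Leaving out each array gave, between starvation and normal growth, -0.18 to 0.0236 for FOSB, -0.14 to 0.0529 for FOSL1 and -0.0467 to 0.0941 for EGR3. Between metformin and starvation it gave -0.15 to 0.0403 for FOS, -0.20 to 0.00194 for FOSB, -0.0722 to 0.17 for FOSL1 and -0.12 to 0.0167 for EGR3, and between metformin and normal growth -0.10 to 0.15 for FOSL1 and -0.0612 to 0.00684 for EGR3.

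Over all probe sets the calls numbered 50, 1425 and 3021 in the order starvation against normal growth, metformin against starvation and metformin against normal growth. Without dim probe sets the first 2 were 142 and 2604, and with trend and robust options 126 and 2469. The first was 155 with single-gene probe sets and 28 with a common median, the second 3368 in the fit of all 9 arrays, 611 with a common median and 650 with each probe set tested by its own spread, and the last 1446 with each probe set tested by its own spread. Leaving out each array gave 0 to 22, 0 to 1189 and 439 to 3734. Signal over background was not measured in the values used here.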
